A study of Homo sapiens with 54 samples.

Results

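The genes described here are 10 secreted inflammatory signals, taken by symbol from a table of 25435 genes measured in 6 ovarian cancer cell lines. They are the chemokines CXCL8, CXCL1, CXCL2, CXCL3, CXCL5, CCL2 and CCL20 and the cytokines IL6, TNF and LIF. All 10 were found, and all 10 passed the filter on low values. The lines are human high-grade serous ovarian carcinoma lines that form 3 pairs, each from 1 patient, in which the platinum-resistant line is set against its sensitive partner. The pairs are PEA2 with PEA1, PEO4 with PEO1, and PEO23 with PEO14, where the resistant line is named first. Each line was sequenced as total RNA untreated, at 8 h and at 24 h of exposure to 80 µM of carboplatin, which crosslinks DNA, with 3 replicate cultures grown on different days. All cultures had serum in the medium and grew for 48 h before treatment. A pair is 1 resistant line and 1 sensitive line, so replicates are cultures of the same line and a difference within a pair is a difference between 2 lines.

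Chemokines are small secreted proteins that draw leukocytes along a gradient. CXCL1, CXCL2, CXCL3, CXCL5 and CXCL8 act mainly on neutrophils through the receptor CXCR2, and CXCL8 also through CXCR1. CCL2 draws monocytes through CCR2, and CCL20 draws lymphocytes and dendritic cells through CCR6. IL6 and LIF signal through receptors that share the chain IL6ST, and TNF is a cytokine that itself activates NF-kB. Ovarian carcinoma cells are known to secrete IL6 and CXCL8, which are abundant in ascites. These genes are classic targets of NF-kB, in several cases with AP-1 and C/EBP factors, and their short-lived mRNAs are degraded through AU-rich elements bound by the ZFP36 proteins.

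The values are TPM, an abundance measure corrected for gene length and scaled to the same sum in each library, so levels can be set side by side between genes. Libraries were rescaled to each other by the median ratio, and a level is given below as rescaled TPM unless it is called deposited TPM. In the libraries compared, deposited TPM was divided by 0.261 to 1.39 in treated and by 1.15 to 1.73 in untreated libraries. The factors of PEO1 and PEO4 replicate 2 at 8 h were 0.261 and 0.264. Those of PEO23 were 0.496 and 0.350 in replicates 1 and 3 at 8 h and 0.371 in replicate 1 at 24 h. Such low factors raise the printed level. Of 54 libraries, 12 listed only 2678 to 11754 genes above 0 TPM, against 12877 to 17133 in the other 42. The comparisons use these 42 libraries and are also given with all 54. They hold no untreated PEO23 library, a single library for PEO14 and PEO4 at 24 h and for PEA1 before treatment, a pair of libraries for 3 groups at 8 h (PEO1, PEO4 and PEA2), and 3 everywhere else. A group with 1 library is assumed to vary like the others. TPM keeps no read depth, and an exact 0 may be a failed estimate, so a gene is said to be listed at 0. Across 1000 genes that differ between lines, all 42 kept libraries resembled their own line most, as did 8 of the 12 left out. The exceptions were the 3 untreated PEO23 libraries and the library labelled PEA1 untreated replicate 3, whose correlation across these genes was 0.67 with the PEA2 mean but 0.10 with its labelled line. Keratins KRT7, KRT8 and KRT18, EPCAM and the Müllerian factor PAX8 were listed in 42 of 42 kept libraries. The other serous markers, WT1 and MUC16, were listed in 39 and 36. Among leukocyte markers the T-cell gene CD3E and the B-cell gene MS4A1 were listed at 0 in all 42, whereas the monocyte genes CD14 and CSF1R were listed in 31 each, up to 15.1 and 11.3 deposited TPM, PTPRC in 17, LYZ in 4 and CD163 in 2. The 7 markers together gave 0 to 18.1 deposited TPM. The 6 fibroblast markers together gave 0 to 103.7 deposited TPM, largely COL1A1, which was listed in 40 libraries, up to 89.2. COL1A2 and LUM were listed in 13 each, up to 8.08 and 8.25. DCN, PDGFRA and COL3A1 were listed in 1, 3 and 3, up to 0.31, 0.32 and 1.7. The share of TPM taken by ribosomal protein genes was 14.8% to 25.0% in treated libraries, against 7.56% to 14.6% in untreated ones. Its part in the treatment results was not tested.

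Neighbouring promoters of these chemokines resemble each other. In RefSeq promoters of build GRCh38.p14, which hold 8 of the 10 genes (CCL2 and LIF have no entry), the 250 bases before to 50 after the gene start were searched on both strands. The NF-kB-type motif GGNNTTTCC was present in 7 of the 8 promoters, all but TNF, and in 6.26% of 35116 promoters. Its form GGAATTTCC, counted within it, was present in CXCL8, CXCL1, CXCL2, CXCL3 and CXCL5 and in 0.461% of all. The AP-1-type motif TGANTCA occurred in CXCL8 alone of the 8 and in 7.71% of all, and TATAAA occurred in CXCL8, CCL20 and TNF and in 11.5% of all. A match is a description of these letters and not a measured site. The stretches upstream of the start are printed for 6 picked genes, with GGNNTTTCC in capitals. CCL20 and TNF are not printed, and TNF is the one without this motif. In CXCL8 the capitals mark TGANTCA, GGNNTTTCC and TATAAA in that order. The CXCL stretches lie on chromosome 4 and IL6 on chromosome 7.
CXCL8, chr4:73740419-73740568, plus strand: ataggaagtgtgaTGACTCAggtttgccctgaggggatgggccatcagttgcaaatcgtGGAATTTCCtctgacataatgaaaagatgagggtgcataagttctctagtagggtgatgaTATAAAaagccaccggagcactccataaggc
CXCL1, chr4:73869283-73869392, plus strand: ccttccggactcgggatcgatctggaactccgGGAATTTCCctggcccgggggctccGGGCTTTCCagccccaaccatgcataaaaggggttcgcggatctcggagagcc
CXCL2, chr4:74099196-74099305, minus strand: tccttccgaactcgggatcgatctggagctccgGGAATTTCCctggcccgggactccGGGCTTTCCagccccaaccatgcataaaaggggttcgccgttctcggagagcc
CXCL3, chr4:74038690-74038799, minus strand: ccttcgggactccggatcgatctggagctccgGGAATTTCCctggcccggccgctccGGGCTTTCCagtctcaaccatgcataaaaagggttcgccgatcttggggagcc
CXCL5, chr4:73998678-73998787, minus strand: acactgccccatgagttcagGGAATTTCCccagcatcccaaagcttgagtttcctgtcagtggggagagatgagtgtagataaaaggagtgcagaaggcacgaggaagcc
IL6, chr7:22727090-22727199, plus strand: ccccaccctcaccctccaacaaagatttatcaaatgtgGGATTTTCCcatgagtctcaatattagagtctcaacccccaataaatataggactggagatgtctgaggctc

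Over the 250 bases before the start, the promoters of CXCL1 and CXCL2 were identical at 90.0% of aligned bases, those of CXCL1 and CXCL3 at 86.8% and those of CXCL2 and CXCL3 at 84.1%. The transcripts are alike as well. The longest annotated CXCL1 and CXCL2 transcripts matched at 91.0% of aligned bases and shared 3 stretches of 75 bases, the length of a read, and CXCL2 and CXCL3 matched at 85.1% with 23 such stretches. No source used here states how reads were shared among these copies, and the separate values of CXCL1, CXCL2 and CXCL3 are uncertain.

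The lines differed by more than an order of magnitude in how much of these mRNAs they held. Before treatment the 10 genes summed to 628 to 666 rescaled TPM in the 3 PEA2 libraries and to 648 in the single PEA1 library. They summed to 8.63 to 29.5 in PEO4, to 39.8 to 42.5 in PEO1 and to 141 to 265 in PEO14. CXCL1 made up 33.9% of the sum in untreated PEA2 and 79.4% in untreated PEA1, so a like total had a different makeup. LIF was the largest member in both PEO4 and PEO1, with 84.6% and 49.4% of the sum. LIF was listed above 0 in all 42 libraries and CXCL1 in 39, whereas CXCL5 was listed in 16.

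**Figure D1:**
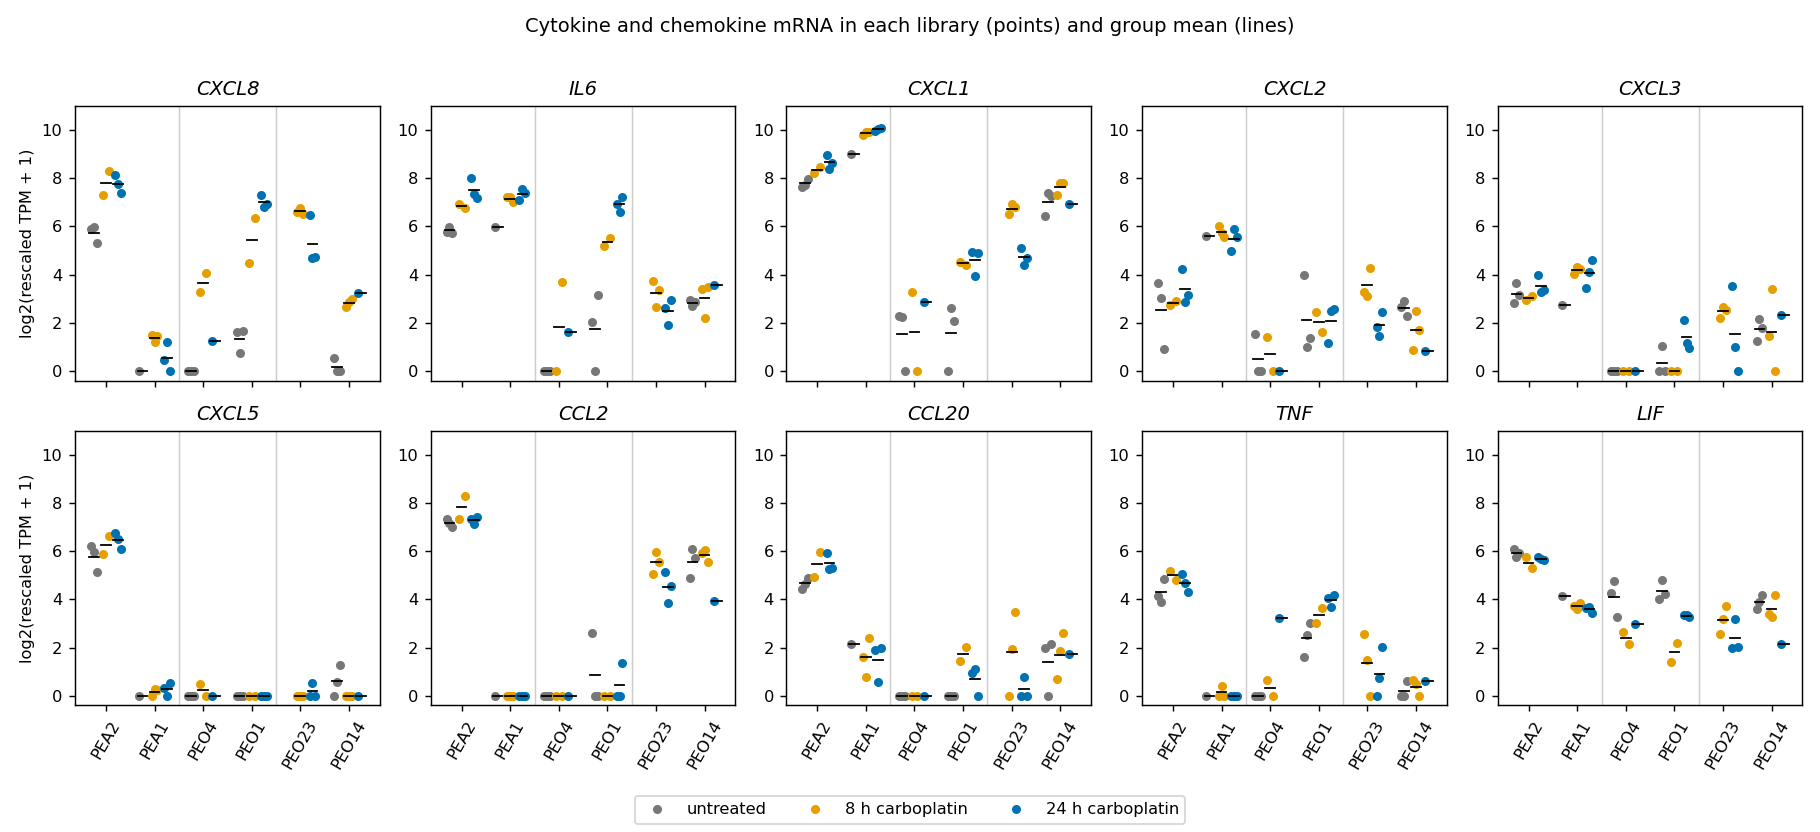
Each panel shows 1 gene, with the level of every kept library as log2(rescaled TPM + 1) on the vertical axis and the 6 lines on the horizontal axis, the resistant line left of its partner. Points are libraries, coloured by time, and short lines are group means; CXCL8 is at or near 0 in untreated PEO4, PEO1 and PEO14 and higher in their treated libraries, whereas CXCL5 and CCL2 separate PEA2 from PEA1 at every time.

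The first question was which of these genes changed under carboplatin. In the fit of the 42 libraries, CXCL8 was the member that rose most widely, after 8 h in 4 of 5 lines and after 24 h in 3 of 5. CXCL2, CXCL3, CXCL5 and CCL2 passed the test there in no line. In PEO1, the sensitive partner of PEO4, CXCL8, IL6 and CXCL1 were higher at both times. In that fit LIF was the only member called lower, in 3 of the 5 lines. With all 54 libraries, CCL2 in PEO14 was also called lower at 24 h (log2 difference -3.94, limma adjusted p = 0.00837). The PEO14 libraries added there listed only 1 and 2 of the 10 members. In the 42 libraries, 8 of 50 member tests were called higher and 2 lower at 8 h, where 10.4% of all gene tests were higher and 18.7% lower. At 24 h, 7 were higher and 2 lower, against 8.40% and 15.2% of all gene tests. The calls of either direction (10 of 50 and 9 of 50) were no more frequent than the 29.2% and 23.6% of all gene tests. By line, 5 of 10 members were called at each time in PEO1, where 41.9% of genes were called at 8 h and 38.6% at 24 h. In PEO4 3 were called at 8 h and 1 at 24 h, where 53.6% and 20% of genes were. In PEA2 1 was called at each time, against 14.3% and 17.3% of genes, and in PEO14 1 at 8 h and 2 at 24 h, against 30.1% and 36.2%.

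In PEO1, CXCL8 stood at 2.05, 0.670 and 2.15 rescaled TPM untreated, at 21.5 and 81.6 after 8 h, and at 155, 110.4 and 120.2 after 24 h. The 3 times did not overlap. The change was 4.10 ± 0.47 at 8 h (log2 difference ± SE on the log2(rescaled TPM + 1) scale, limma adjusted p = 1.55e-07) and 5.67 ± 0.42 at 24 h (adjusted p = 7.42e-11). In PEO4, CXCL8 was listed at 0 in all 3 untreated libraries, at 8.56 and 15.8 after 8 h and at 1.36 in the single library at 24 h. The PEO4 change was 3.67 ± 0.47 at 8 h (adjusted p = 1.89e-07), and at 24 h it was 1.24 ± 0.59 and did not pass (adjusted p = 0.14). PEA2, which already held the most CXCL8, had 58.0, 62.4 and 38.8 untreated, 158 and 318 after 8 h, and 278, 214 and 167 after 24 h. Every treated PEA2 library lay above every untreated one, and the changes were 2.09 ± 0.47 (adjusted p = 0.00262) and 2.03 ± 0.42 (adjusted p = 0.000886). Without PEA2 replicate 3 at 8 h, the 8 h change was 1.59 and no longer called.

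PEO14 held little CXCL8 throughout, 0.446, 0 and 0 untreated, 5.28, 6.30 and 6.97 after 8 h and 8.38 in the single library at 24 h. Its changes were 2.66 ± 0.42 (adjusted p = 1.58e-05) and 3.05 ± 0.59 (adjusted p = 0.000216). In PEA1, CXCL8 was listed at 0 in the single untreated library, at 1.83, 1.30 and 1.72 after 8 h and at 0.353, 1.29 and 0 after 24 h. Neither PEA1 change passed (1.38 ± 0.59 with adjusted p = 0.198, and 0.54 ± 0.59 with adjusted p = 0.747). No PEA1 member test was called, where 5.90% of genes were called at 8 h and 6.02% at 24 h. PEO23, with no untreated library to compare, had 96.4, 106.4 and 91.7 at 8 h and 87.5, 24.4 and 25.5 at 24 h. With all 54 libraries, the PEO1 change at 24 h kept its call (5.90, adjusted p = 0.00195), and the other 6 called CXCL8 changes remained positive, uncalled, with adjusted p of 0.139 to 0.751. Of these, the PEO14 change at 24 h was 1.03 and the PEO1 change at 8 h was 2.53. The libraries left out listed CXCL8 at 0 in PEO1 and PEO4 at 8 h and in PEO4 and PEO14 at 24 h, and at 156 deposited TPM in PEA2 at 8 h.

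IL6 moved most in PEO1 and was high in both PEA lines without drug. In PEO1 it stood at 3.04, 0 and 8.00 untreated, at 35.4 and 45.3 after 8 h and at 122, 95.4 and 146 after 24 h, again without overlap. The changes were 3.63 ± 0.67 (adjusted p = 7.19e-05) and 5.18 ± 0.60 (adjusted p = 1.30e-07), and with all 54 libraries the one at 24 h kept its call (adjusted p = 0.015) and the one at 8 h did not (2.07, adjusted p = 0.448). PEO4 listed IL6 at 0 in all 3 untreated libraries, at 0 and 11.7 after 8 h and at 2.03 in the single library at 24 h. The PEO4 change at 8 h was called at 1.84 ± 0.67 (adjusted p = 0.021), but it rests on 1 library and is 0 without PEO4 replicate 2 at 8 h. PEA2 had 53.7, 62.6 and 51.8 untreated, 123 and 108 after 8 h and 253, 161 and 145 after 24 h. All treated PEA2 libraries exceeded all untreated ones, yet the change at 24 h, 1.68 ± 0.60, did not pass (adjusted p = 0.050015). PEA1 had 61.1 in the single untreated library, 149, 149 and 127 after 8 h and 136, 188 and 168 after 24 h, and neither change passed (adjusted p = 0.515 and 0.422). PEO14 stayed between 3.52 and 10.9 at all times, and PEO23 had 5.20 to 12.3 at 8 h and 2.72 to 6.69 at 24 h.

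CXCL1 rose in PEO1 and was abundant elsewhere with or without drug. In PEO1 it had 0, 5.06 and 3.24 untreated, 22.0 and 20.3 after 8 h and 29.6, 14.5 and 28.8 after 24 h. The treated PEO1 libraries all lay above the untreated ones, by 2.91 ± 0.65 at 8 h (adjusted p = 0.000678) and 3.04 ± 0.58 at 24 h (adjusted p = 0.00016). The 8 h call was lost without rescaling (1.55, adjusted p = 0.079), with all 54 libraries (1.64, adjusted p = 0.361) and with only the groups compared (adjusted p = 0.106), and the 24 h call was kept in each. PEA1 had the highest level of any member in any line, 514 untreated, 895, 963 and 961 after 8 h and 998, 1052 and 1075 after 24 h. PEA2 had 198, 211 and 252 untreated, 292 and 356 after 8 h and 495, 336 and 400.3 after 24 h. Neither PEA line passed the test for CXCL1 (adjusted p = 0.34 to 0.683), although treated and untreated libraries did not overlap. PEO14 ranged from 84.7 to 225, PEO4 from 0 to 8.59, and PEO23 had 89.5, 119 and 109.8 at 8 h and 33.6, 20.01 and 24.9 at 24 h.

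The other calls concerned TNF, CCL20 and LIF. TNF in PEO1 had 2.09, 4.79 and 7.12 untreated, 7.06 and 11.6 after 8 h and 15.4, 11.97 and 17.0 after 24 h. The 24 h change was 1.57 ± 0.46 (adjusted p = 0.0081), and it was not called without PEO1 untreated replicate 1 (1.18) or with all 54 libraries (1.81, adjusted p = 0.0971). PEO4 listed TNF at 0 in the 3 untreated libraries, at 0.584 and 0 after 8 h and at 8.34 in the single kept library at 24 h, a change of 3.22 ± 0.66 (adjusted p = 0.000847). The PEO4 libraries left out at 24 h listed TNF at 0 and 4.43 deposited TPM, and with all 54 libraries the change was 2.27 (adjusted p = 0.0113). CCL20 in PEO1 was listed at 0 in the 3 untreated libraries and stood at 1.68 and 3.10 after 8 h and at 0.949, 1.14 and 0 after 24 h. Its 8 h change of 1.73 ± 0.69 (adjusted p = 0.0446) lost its call when any 1 of the 5 PEO1 libraries was left out, at 1.45 to 2.04.

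LIF, a cytokine of the IL6 family that maintains stem cells in culture, fell in PEO1, PEO4 and PEO14. PEO1 had 15.2, 27.3 and 17.9 untreated, 1.67 and 3.53 after 8 h and 9.22, 9.07 and 8.55 after 24 h. The PEO1 change was -2.56 ± 0.38 at 8 h (adjusted p = 4.99e-06) and -1.05 ± 0.34 at 24 h (adjusted p = 0.0152), the second being -0.82 and not called without PEO1 untreated replicate 2. PEO4 had 18.2, 25.8 and 8.63 untreated, 5.20 and 3.45 after 8 h and 6.77 in the single library at 24 h, a change of -1.70 ± 0.38 at 8 h (adjusted p = 0.000388). PEO14 had 11.3, 13.8 and 17.4 untreated, 9.53, 8.67 and 17.0 after 8 h and 3.47 in the single library at 24 h, a change of -1.74 ± 0.48 at 24 h (adjusted p = 0.00546). In the fit of all 54 libraries, the PEO14 change at 24 h kept its call (adjusted p = 0.00502). The PEO1 changes and the PEO4 change at 8 h remained negative with adjusted p of 0.0861 to 0.635. The PEO4 change at 24 h was called in that fit (-2.95, adjusted p = 0.00653). LIF stayed between 38.7 and 66.6 in PEA2 and between 9.96 and 16.5 in PEA1 at all times.

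**Figure D2:**
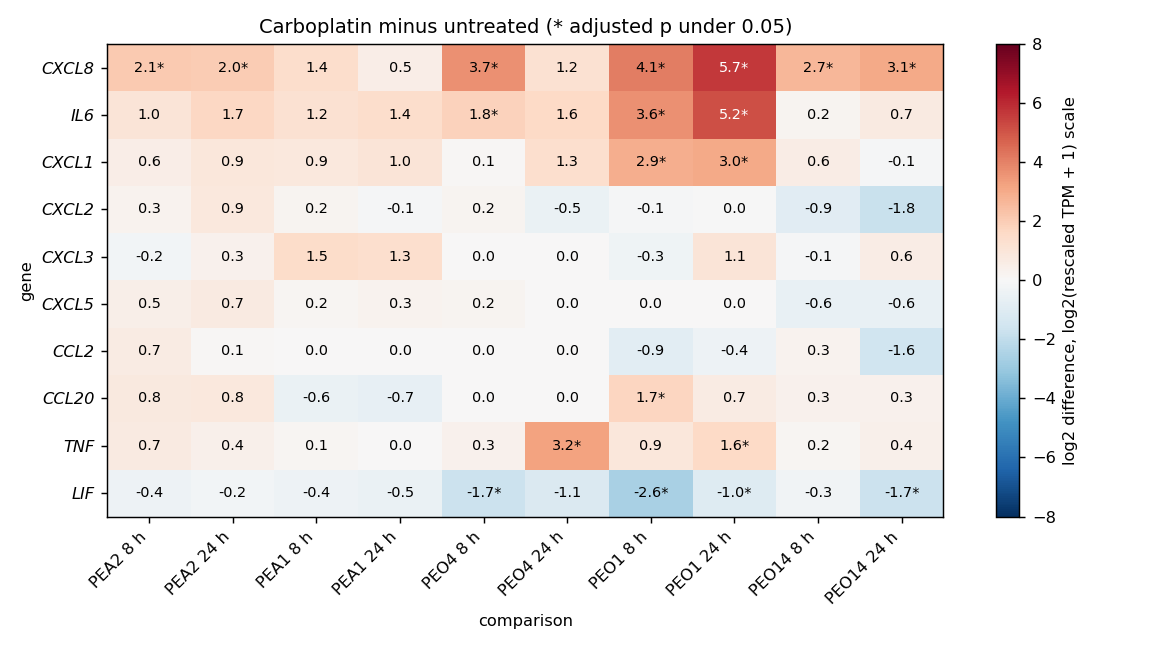
The map gives, for each gene (rows) and each comparison of treated with untreated libraries of a line (columns), the log2 difference on the log2(rescaled TPM + 1) scale, with an asterisk where the limma adjusted p was under 0.05. The CXCL8 row is positive in all 10 columns and called in 7, and the LIF row is negative in all 10 and called in 4.

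Between 8 h and 24 h, 2 of 60 member tests passed, 1 higher and 1 lower, where 1.40% of all gene tests were higher and 1.48% lower, 2.88% in all. Both were in PEO4, where 14.1% of genes were called, with its single library at 24 h. CXCL8 was lower at 24 h than at 8 h (-2.43 ± 0.63, adjusted p = 0.013) and TNF was higher (2.89 ± 0.70, adjusted p = 0.00902). Both were lost without PEO4 replicate 2 at 8 h (-2.06 and 2.58). In the other lines no member passed, against 0.0278% of genes in PEA1, 0.217% in PEO1, 0.394% in PEO23, 2.54% in PEO14 and 0% in PEA2. Cultures with equal replicate numbers shared a passage at 8 h and 24 h, and with that pairing as a replicate block neither passed (adjusted p = 0.0874 for CXCL8 and 0.107 for TNF). The paired fit called IL6 lower (-2.07 ± 0.37, adjusted p = 0.0126) and CXCL1 higher (2.84 ± 0.42, adjusted p = 0.00781) in PEO4, which there rest on 1 pair of libraries. It also called CXCL1 lower in PEO23 (-2.002 ± 0.24, adjusted p = 0.0366), where every library at 24 h lay below every library at 8 h.

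The next question was how the members differed between a resistant line and its partner. Over both pairs with untreated libraries, the resistant line was higher in 5 of 20 member tests and lower in 4, where 10.9% of all gene tests were higher and 9.10% lower, 20% in all. At 8 h the counts over 3 pairs were 7 higher and 5 lower of 30, against 6.82% higher and 6.81% lower among all gene tests, 13.6% in all. At 24 h they were 7 higher and 3 lower of 30, against 8.18% higher and 6.97% lower, 15.2% in all. All but 2 of the higher calls over the 3 times were in the PEA pair, and none was in the PEO4 and PEO1 pair.

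PEA2 held CXCL8, CXCL5, CCL2 and TNF at levels that PEA1 lacked at every time, and more LIF, while CXCL2 was lower. Untreated, 5 members were higher and 1 lower, against 11.6% of genes called. At 8 h and at 24 h 6 were higher and 1 lower, against 16.2% and 18.7% of genes. CCL2 had 163, 144 and 127 in untreated PEA2, 162 and 316 at 8 h and 162, 140.1 and 169.9 at 24 h, whereas all 7 kept PEA1 libraries listed it at 0. Its differences were 7.18 ± 0.66, 7.83 ± 0.52 and 7.30 ± 0.46 at the 3 times (adjusted p = 1.14e-09, 5.88e-13 and 1.62e-13), set by the added 1 TPM where PEA1 was at 0. CXCL5 had 72.4, 61.6 and 33.9 in untreated PEA2, 58.6 and 97.6 at 8 h and 105.7, 90.8 and 67.9 at 24 h, while the 7 PEA1 libraries ranged from 0 to 0.460. The CXCL5 differences were 5.76 ± 0.40, 6.09 ± 0.31 and 6.17 ± 0.28 (adjusted p = 2.92e-12 and lower).

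CXCL8, with the library values given above, differed between PEA2 and PEA1 by 5.73 ± 0.59, 6.43 ± 0.47 and 7.21 ± 0.42 at the 3 times (adjusted p = 1.58e-08 and lower). TNF had 16.8, 13.9 and 27.6 in untreated PEA2, 35.2 and 27.3 at 8 h and 32.4, 24.4 and 18.7 at 24 h. In PEA1 it was listed at 0 in 6 of 7 libraries and at 0.333 in the other, and the differences were 4.30 ± 0.66, 4.86 ± 0.52 and 4.68 ± 0.46 (adjusted p = 1.60e-05 and lower). CCL20 had 20.7, 24.0 and 29.01 in untreated PEA2, 29.5 and 62.3 at 8 h and 59.9, 37.0 and 38.2 at 24 h, against 0.469 to 4.32 over the PEA1 libraries. It passed at 8 h (3.87 ± 0.69, adjusted p = 0.000104) and at 24 h (4.005 ± 0.62, adjusted p = 9.99e-06) and narrowly missed untreated (2.52 ± 0.88, adjusted p = 0.0593). LIF was higher in PEA2 by 1.79 ± 0.48, 1.80 ± 0.38 and 2.09 ± 0.34 (adjusted p = 0.0111, 0.000775 and 2.19e-05).

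CXCL2 went the other way in this pair. It had 11.5, 7.19 and 0.877 in untreated PEA2, 5.74 and 6.57 at 8 h and 17.5, 6.17 and 7.81 at 24 h. PEA1 had 47.1 untreated, 64.3, 52.0 and 46.8 at 8 h and 30.2, 58.0 and 46.1 at 24 h, so the lines did not overlap. The differences were -3.06 ± 0.93, -2.94 ± 0.74 and -2.07 ± 0.66 (adjusted p = 0.0273, 0.00444 and 0.0245). The untreated call was lost without PEA2 untreated replicate 3 (-2.25) and with the replicate number as a block (-2.79). The call at 24 h was lost without replicate 2 or 3 of either line, at -2.02 to -1.79. CXCL1 differed by -1.23, -1.54 and -1.36 at the 3 times without passing, and CXCL3 (6.02 to 14.9 in PEA2, 5.57 to 23.1 in PEA1) and IL6 did not pass at any time.

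CXCL6, a neutrophil chemokine next of kin to CXCL5 that is not among the 10 genes, was picked after its values were seen because it ran opposite to CXCL5. It had 2.16 to 3.23 in untreated PEA2, 3.60 and 4.20 at 8 h and 6.97 to 11.8 at 24 h, against 77.1 in untreated PEA1, 145 to 159 at 8 h and 134 to 179 at 24 h. The differences were -4.40 ± 0.27, -4.96 ± 0.22 and -3.88 ± 0.19 (adjusted p = 3.62e-13, 6.12e-17 and 5.13e-16). The CXCL5 and CXCL6 transcripts matched at 85.4% of aligned bases and shared no stretch of 75 bases, so no full-length read matches both of the longest annotated transcripts exactly.

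Passage and resistance cannot be told apart in this pair, since the labels give PEA2 passages of 23 to 27 and all PEA1 passages far above these. The left-out library labelled PEA1 untreated replicate 3, which resembled PEA2, listed CXCL8 at 64.0, CXCL5 at 94.4 and CCL2 at 16.0 deposited TPM, whereas replicate 2 listed all of them at 0. With all 54 libraries, CXCL5, CCL2 and TNF kept their calls at all 3 times and CXCL8 at 8 h and 24 h, with an untreated CXCL8 difference of 3.90 (adjusted p = 0.051). LIF lost its call at all 3 times (adjusted p = 0.104 to 0.649). CXCL2 lost its call untreated, where the difference was -0.98 (adjusted p = 0.734), and at 24 h (-1.97, adjusted p = 0.433), and CCL20 lost its call at 8 h (2.08, adjusted p = 0.545). CDH5, an endothelial cadherin, stood at 127 to 257 deposited TPM in PEA2 and at 0 to 0.30 in PEA1, while the endothelial gene PECAM1 did not exceed 0.41 in any kept library. The other endothelial genes, VWF and KDR, did not exceed 1.79 and 2.28 in any kept library. The 4 endothelial markers summed to 128 to 259 in PEA2, nearly all of it CDH5, and to 0 to 0.30 in PEA1. Their part in the differences was not tested.

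**Figure D3:**
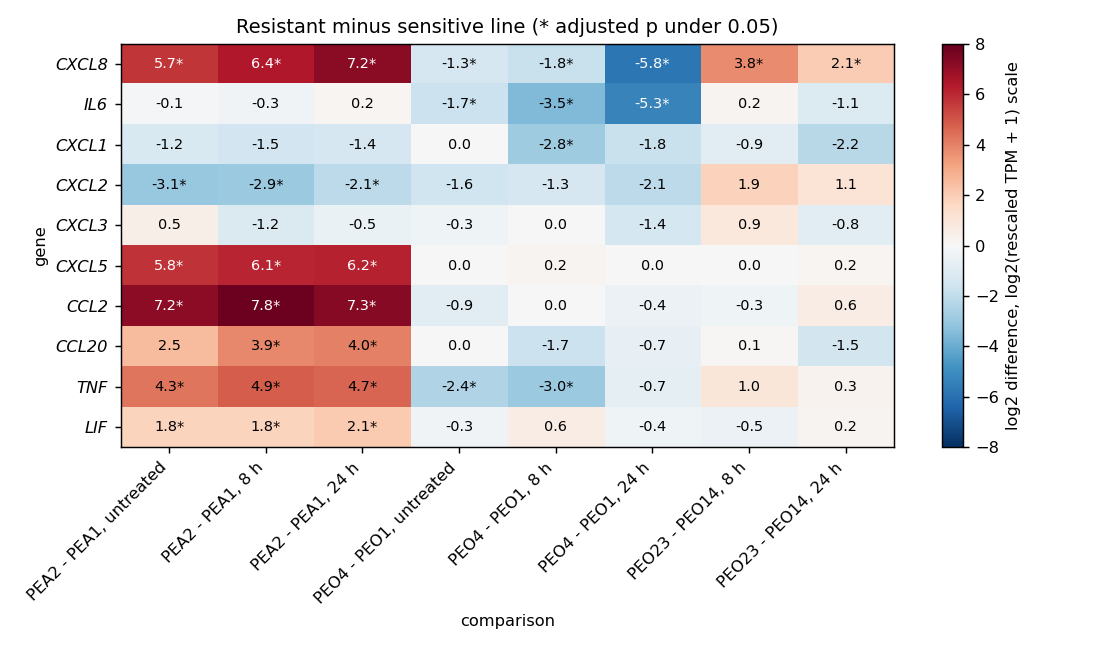
The map gives, for each gene (rows) and each pair and time (columns), the log2 difference between the resistant line and its partner on the log2(rescaled TPM + 1) scale, with an asterisk where the limma adjusted p was under 0.05. Of the 10 rows, 5 have an asterisk for higher values in all 3 PEA columns, and the called PEO4 differences are all negative.

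In the PEO4 and PEO1 pair no member was higher in the resistant line. Untreated, 3 members were lower, where 28.4% of genes were called, at 8 h 4 were lower, against 9.89%, and at 24 h 2 were lower, against 21.6%. At 24 h CXCL8 reached 1.36 in the PEO4 library, against 155, 110.4 and 120.2 in PEO1, a difference of -5.76 ± 0.59 (adjusted p = 3.34e-08). IL6 reached 2.03 in that PEO4 library, against 122, 95.4 and 146 in PEO1 (-5.31 ± 0.84, adjusted p = 3.66e-05). Both calls held with all 54 libraries (adjusted p = 7.77e-05 and 0.000698), where the added PEO4 libraries listed both genes at 0. Of these, replicate 1 listed 0 of the 10 members and replicate 3 listed 2, so their zeros cannot show a low level. TNF was lower in PEO4 untreated (-2.39 ± 0.46, adjusted p = 0.000221) and at 8 h (-2.999 ± 0.57, adjusted p = 0.000441), and both calls held with all 54 libraries. The one at 8 h was lost without replicate 2 of both lines (-2.37, adjusted p = 0.317) and with only the groups compared (adjusted p = 0.231).

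The other differences in this pair each lost their call when 1 library was left out, in part with little change in size. Each also lost its call with all 54 libraries (limma adjusted p = 0.405 to 0.966). Untreated, CXCL8 was lower by -1.33 ± 0.42 (adjusted p = 0.017) and IL6 by -1.73 ± 0.60 (adjusted p = 0.0294). CXCL8 lost its call without PEO1 untreated replicate 1 (-1.19) or 3 (-1.17), and IL6 without any 1 of 5 of the 6 untreated libraries, at -1.75 to -1.002. At 8 h CXCL8 was lower by -1.77 ± 0.51 (adjusted p = 0.0242), IL6 by -3.52 ± 0.73 (adjusted p = 0.00125) and CXCL1 by -2.84 ± 0.72 (adjusted p = 0.00824). Each of these calls was lost without 1 PEO4 library, where the values were -1.36 for CXCL8 and -1.69 for IL6 without replicate 1 and -1.20 for CXCL1 without replicate 2. CXCL8 was also lost without PEO1 replicate 2 at 8 h (-0.83). CXCL1 was also lost without PEO1 replicate 1 (-2.79) and without rescaling (-2.08, adjusted p = 0.259). CXCL3, CCL2 and CCL20 were listed at 0 in all 6 kept PEO4 libraries and reached at most 3.31, 5.14 and 3.10 in PEO1.

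The treatment changes themselves differed between PEO4 and PEO1 for CXCL8. Of 70 member tests of a difference in change between partner lines, 2 passed, both lower, where 0.472% of all gene tests were lower and 0.307% higher, 0.779% in all. The change of CXCL8 from untreated at 24 h was lower in PEO4 than in PEO1 by -4.43 ± 0.73 (adjusted p = 0.000741), and its change between 8 h and 24 h by -3.999 ± 0.79 (adjusted p = 0.0113). In these comparisons 1.38% and 0.822% of genes were called. At 8 h the difference of the changes was -0.43 ± 0.66 and did not pass (adjusted p = 0.835, with 2.38% of genes called). No member passed between PEA2 and PEA1, where 0.339%, 0.383% and 0.00555% of genes were called for the changes at 8 h, at 24 h and between them, or between PEO23 and PEO14 (0.139%). For IL6 the difference at 24 h was -3.58 ± 1.03 and did not pass (adjusted p = 0.0822). Both CXCL8 results rest on the single PEO4 library at 24 h. In the fit of all 54 libraries they were -5.55 (adjusted p = 0.189) and -5.71 (adjusted p = 0.148). With the replicate block the first was -4.49 (adjusted p = 0.00141), the second was -4.45 and lost its call (adjusted p = 0.0941), and IL6 and CXCL1 passed for the change from 8 h to 24 h (-3.48 with adjusted p = 0.00975 and 2.86 with adjusted p = 0.0302). The second CXCL8 result was also lost without PEO1 replicate 1 (-3.07) or PEO4 replicate 2 (-3.62) at 8 h.

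**Figure D4:**
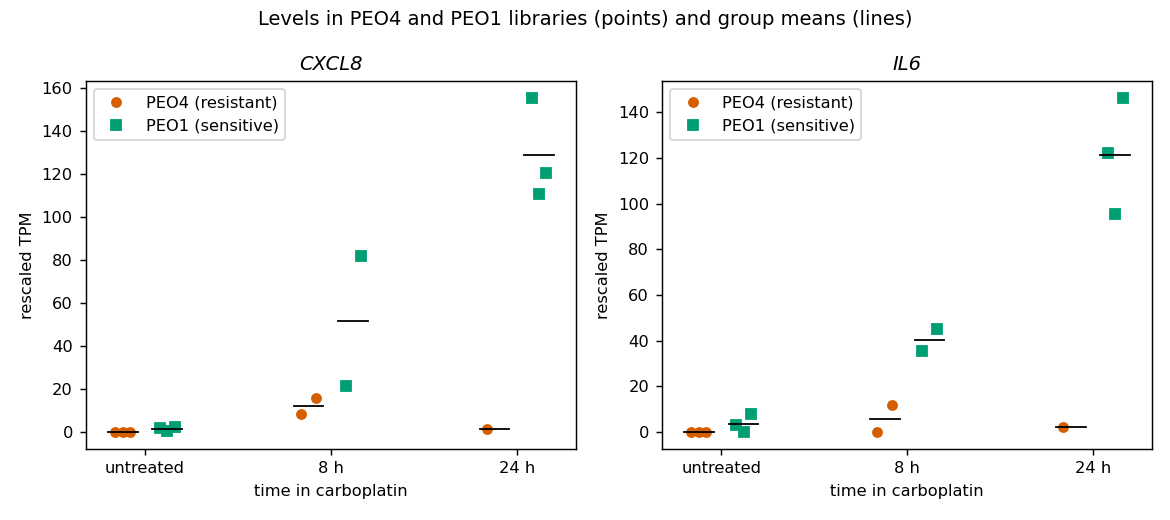
Levels of CXCL8 (left) and IL6 (right) in rescaled TPM are plotted for each kept PEO4 and PEO1 library by time in carboplatin, with lines at group means. At 24 h the single PEO4 library lies at 1.36 for CXCL8 and 2.03 for IL6, and the PEO1 libraries lie between 110.4 and 155 for CXCL8 and between 95.4 and 146 for IL6.

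In the PEO23 and PEO14 pair, which could be compared only under treatment, CXCL8 alone passed. At 8 h it had 96.4, 106.4 and 91.7 in PEO23 and 5.28, 6.30 and 6.97 in PEO14, a difference of 3.79 ± 0.42 (adjusted p = 1.14e-07, with 14.8% of genes called). At 24 h it had 87.5, 24.4 and 25.5 in PEO23 and 8.38 in the single PEO14 library (2.06 ± 0.59, adjusted p = 0.0371, with 5.16% of genes called). Without PEO23 replicate 1 at 24 h, the second difference was 1.47 and not called. With all 54 libraries the 8 h difference missed the threshold (3.93, adjusted p = 0.0923) and the 24 h difference passed (4.19, adjusted p = 0.0431). PEO14 replicates 2 and 3 at 24 h, added in that fit, listed CXCL8 at 0 and only 1 and 2 of the 10 members. CXCL2 had 8.68, 7.68 and 18.1 in PEO23 and 0.807, 4.60 and 2.26 in PEO14 at 8 h, without passing (1.87 ± 0.66, adjusted p = 0.0533). CCL2 did not pass at either time, with 13.3 to 61.5 in PEO23 and 14.5 to 67.0 in PEO14 over all times.

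The receptors of these ligands differed in how often they were listed. CXCR1 was listed at 0 in all 42 kept libraries, CXCR2 and CCR2 above 0 in 2 each, ACKR1 in 1 and CCR6 in 4. The TNF receptor TNFRSF1B was listed in 15 and ACKR3, an atypical chemokine receptor, in 14, up to 1.40 and 10.5 rescaled TPM. IL6R and LIFR were listed in 38 and 39, up to 3.88 and 5.89. IL6ST, the shared signalling chain, and the TNF receptor TNFRSF1A were listed in all 42. Of 6 receptors tested, IL6ST was the one called most often under carboplatin, higher in 4 of 10 comparisons by 1.503 to 1.81. Of all gene tests 10.4% were higher at 8 h and 8.4% at 24 h. In PEO1 IL6ST had 10.1, 9.24 and 23.01 untreated, 33.1 and 48.2 after 8 h and 40.5, 44.97 and 39.2 after 24 h. Without rescaling, no IL6ST call remained and the PEO1 change at 8 h was -0.10, so its direction depends on the scaling. Between partners, LIFR, the LIF receptor chain, was lower in PEO4 than in PEO1 at all 3 times (-1.08 ± 0.34, -1.58 ± 0.42 and -2.01 ± 0.49), while it was higher in PEA2 than in PEA1 at 8 h (1.83 ± 0.39) and 24 h (1.12 ± 0.34). TNFRSF1A was lower in PEA2 than in PEA1 at 8 h (-1.30 ± 0.27) and 24 h (-0.84 ± 0.24). Of the 3 lower LIFR calls 1 was kept with all 54 libraries, 2 without rescaling and 1 with only the groups compared, and of the 2 TNFRSF1A calls 0 were kept with all 54 libraries or without rescaling.

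Other cytokines and chemokines, 39 genes of which 33 were tested, gave scattered calls. Under carboplatin 1 to 5 of the 33 were higher in a comparison and 0 to 10 lower, where 5.90% to 53.6% of all genes were called, the 10 lower being in PEO4 at 8 h with 53.6%, with medians of -0.42 to 0.00 against -0.27 to 0.00 for all genes. CSF2, which encodes the growth factor GM-CSF, was higher in all 4 PEA comparisons. It had 24.3, 24.6 and 17.1 in untreated PEA2, 54.7 and 57.3 after 8 h and 91.7, 58.7 and 70.3 after 24 h. In PEA1 it had 17.3 untreated, 75.8, 58.2 and 57.7 after 8 h and 70.8, 87.7 and 74.5 after 24 h. The CSF2 changes were 1.33 ± 0.41 and 1.69 ± 0.36 in PEA2 and 1.82 ± 0.52 and 2.10 ± 0.52 in PEA1 (adjusted p = 0.00135 to 0.0312), and in the other 4 lines no library exceeded 2.07. Without rescaling 1 of the 4 calls remained, at 0.95 to 1.65, and with all 54 libraries none did.

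CLCF1, a cytokine of the IL6 family, and IL16, a chemoattractant of CD4+ T cells, were each lower in 5 of 10 carboplatin comparisons, by -2.22 to -1.02 and by -2.05 to -1.18. Of all gene tests 18.7% were lower at 8 h and 15.2% at 24 h. Between partners 6.82% to 10.9% of all gene tests were higher at a given time and 6.81% to 9.1% lower. CCL28, a mucosal chemokine, was higher in the resistant line in 5 of 8 comparisons, by 2.31 to 4.34, and lower in PEO4 than in PEO1 at 8 h (-2.30 ± 0.67, adjusted p = 0.0234). It ranged from 278 to 895 in PEO23 and from 18.9 to 36.6 in PEO14 at 8 h. In the fit of all 54 libraries none of the CLCF1, IL16 and CCL28 calls remained.

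The regulators were 24 genes that act in transcription or mRNA decay, and all 24 were tested. Under carboplatin 1 to 5 were higher and 1 to 17 lower in a comparison, where 18.7% of all gene tests were lower and 10.4% higher at 8 h and 15.2% and 8.40% at 24 h. The 17 lower were in PEO4 at 8 h, where 53.6% of all genes were called, and in 4 of 10 comparisons the higher and lower counts were equal. The medians were -1.44 to -0.07 against -0.27 to 0.00 for all genes. ZFP36L1, which binds AU-rich elements and promotes mRNA decay, was lower in 9 of 10 comparisons, by -3.18 to -1.46. It had 74.8, 75.4 and 58.7 in untreated PEA2, 25.7 and 23.3 after 8 h and 19.6, 27.1 and 21.9 after 24 h. In PEO1 ZFP36L1 had 103.8, 157 and 65.0 untreated, 9.78 and 16.0 after 8 h and 13.2, 15.9 and 21.4 after 24 h. In each of the 5 lines every treated library lay below every untreated one. All 9 calls were kept without rescaling and 2 with all 54 libraries, and 589 of 18013 genes were likewise lower in at least 9 of the 10 comparisons.

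NFKBIA, which encodes the NF-kB inhibitor and is itself an NF-kB target, was higher in 10 of 10 comparisons by 0.58 to 1.46 in rescaled TPM, 1 of 17 genes called higher in all 10. In PEO1 it had 67.3, 64.8 and 71.2 untreated, 123 and 128 after 8 h and 202, 179 and 185 after 24 h. Without rescaling the NFKBIA changes ran from -1.03 to 0.91 with 3 negative and 1 call kept, so its rise is relative to the median gene, and with all 54 libraries no call remained. BCL3, an NF-kB cofactor, was lower in 6 comparisons, by -3.66 to -1.93, all in PEO1, PEO4 and PEO14. ATF3, a stress-induced transcription factor, was higher in 5, by 1.24 to 3.62, with 55.1, 51.9 and 61.5 in PEO1 after 24 h against 1.80, 6.13 and 4.003 untreated. Without rescaling the ATF3 change in PEO1 at 8 h was -0.21. Of the 5 ATF3 calls, 2 were kept without rescaling, 3 with all 54 libraries and 2 with only the groups compared. Of the 6 BCL3 calls, 6, 4 and 3 were kept in these settings.

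**Figure D5:**
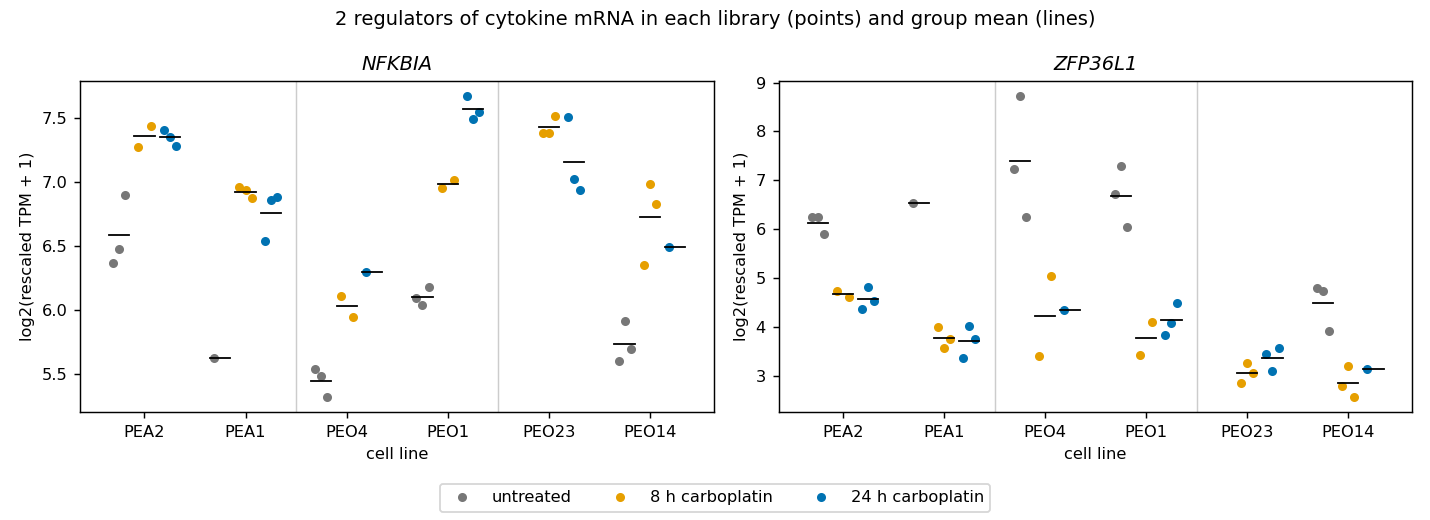
The levels of NFKBIA (left) and ZFP36L1 (right) in every kept library are plotted as log2(rescaled TPM + 1) by line, with lines at group means. Treated libraries lie below untreated ones for ZFP36L1 in the 5 lines with both, and above them for NFKBIA, a direction that holds for the rescaled values and turns in 3 of 10 comparisons without rescaling.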

How the data were processed

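RNA-seq libraries of 6 lines at 3 times were analysed (54 libraries, 18 groups). The authors deposited gene-level TPM in 1 table whose name points to RSEM. The build hg19 and the tool bcl2fastq 2.18 are named per the submitters' processing notes. Per the labels' protocols, a stranded total RNA kit and read pairs of 75 bases were used. No source used here gives the aligner, annotation or strand setting. The treatment protocol gives the dose in µM and the series text in mM, and µM was used. Untreated libraries carry no treatment time in the labels, whereas the series text describes vehicle harvested at 24 h. Passages of untreated and treated cultures overlapped in 1 of 18 sets of line and number, so passage and treatment cannot be told apart.

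From the deposited TPM, libraries listing at least 12000 genes above 0 (42) were rescaled by the median ratio over 8287 genes and transformed as log2(value + 1), which understates changes of low genes. The 18013 genes that reached 1 TPM in 3 or more libraries were fitted with limma 3.58.1 in R 4.3.3, with a trend and 1 mean per group. In 31 comparisons p-values were adjusted by Benjamini-Hochberg over all genes, and calls were made under 0.05. The fit was tried on simulated normal values, with changes put only into genes of higher level in PEA2 at 8 h. That trial did not cover genes near 0 or groups with 1 library. Replicates are cultures on different days, so p-values measure the spread between cultures. The labels give 8 h and 24 h cultures of equal number the same passage in 18 of 18 cases, which pairs them. Deviations of the 10 pairs kept correlated at -0.247 to 0.411. Alternatives were all 54 libraries, no rescaling, a pseudocount of 0.1, no filter, only the groups compared, the replicate block, and leaving out replicates or single libraries. For 24 h against 8 h, the replicate block was line and replicate number among treated libraries. In all other comparisons it was the replicate number alone, which pairs no shared passage. Named list genes were the at most 4 per list called in 1 direction in the most comparisons. The 10 genes, the lists and the tests were chosen with earlier results of these data known. Promoter and transcript comparisons used Biopython 1.88, with RefSeq promoters and GENCODE transcripts.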

Additional observations from a re-analysis of the deposited data

Results flagged for a closer look

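The treatment change of CXCL8 differed between the lines of the PEO4 and PEO1 pair in the test of the difference itself. The change at 24 h against untreated was lower in PEO4 than in PEO1 by -4.43 (log2, limma adjusted p = 0.000741), and the change at 24 h against 8 h by -3.999 (adjusted p = 0.0113). PEO4 has 1 kept library at 24 h, with CXCL8 at 1.36 rescaled TPM, against 155, 110.4 and 120.2 in PEO1. Both left-out PEO4 libraries at 24 h listed CXCL8 at 0. They listed 0 (replicate 1) and 2 (replicate 3) of the 10 members, so this cannot show a low level. A pseudocount of 0.1 gave -2.49 (adjusted p = 0.397) and -4.61 (adjusted p = 0.077).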

How the results depend on the processing

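Of 54 calls on the 10 genes, 19 were kept under every setting that could be formed and 0 changed sign. Calls lost were 31 with all 54 libraries, 17 with only the groups compared, 10 with a pseudocount of 0.1, 7 without rescaling, 4 with the replicate block and 1 without the filter. Groups with 1 kept library could not be left out. With all 54 libraries, higher and lower calls (higher first) were 1 and 0 at 8 h against 8 and 2 in the 42 libraries. The 1 higher call was CXCL3 in PEA1 (3.38, limma adjusted p = 0.00927), not called in the 42 libraries, so no 8 h call was kept. At 24 h against untreated they were 5 and 3, against 7 and 2. These included CXCL3 higher in PEA1 (3.10, adjusted p = 0.0193) and CCL2 lower in PEO14 (-3.94), neither called in the 42 libraries. The comparison of 24 h against 8 h gave 0 higher against 1. Resistant against sensitive gave 3 and 1 untreated against 5 and 4, 4 and 2 at 8 h against 7 and 5, and 5 lower at 24 h against 3, and the difference of changes 0 lower against 2. Without rescaling there were 5 higher at 8 h, 4 lower at 24 h, and 4 higher and 0 lower for 24 h against 8 h. With only the groups compared there were 1 lower at 8 h, 11 higher at 24 h, 0 and 0 for 24 h against 8 h, and 1 lower untreated and 3 lower at 8 h between partners. The pseudocount gave 0 lower for 24 h against 8 h, 3 lower between partners at 8 h and 0 differences of change. The replicate block gave 2 lower for 24 h against 8 h and 1 higher difference of change, lost the calls given in the report and changed no other. Leaving out each replicate number gave 7 to 8 higher and 1 to 2 lower at 8 h, 5 to 7 and 0 to 3 at 24 h, and 0 to 2 and 0 to 1 for 24 h against 8 h. Without replicate 1 or 2 some comparisons could not be formed, with 3 of 5 formed at 24 h and 4 of 7 differences of change without replicate 1, so low counts there are partly comparisons not made. Between partners it gave 0 to 5 and 1 to 3 untreated (the 0 without replicate 1, where 1 of 2 pairs could be formed and PEA2 with PEA1 could not), 6 to 8 and 2 to 4 at 8 h, 6 to 7 and 0 to 4 at 24 h, and 0 to 2 lower differences of change.

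Results that turned sign were NFKBIA without rescaling in PEO1 at 8 h (-0.84), PEO4 at 8 h (-1.03) and PEO14 at 24 h (-0.61), IL6ST in PEO1 at 8 h (-0.10) and ATF3 in PEO1 at 8 h (-0.21), also without rescaling, and, with all 54 libraries, IL6ST in PEO14 at 24 h (-0.84) and IL16 in PEO4 at 8 h (0.18). Rescaling moved the median of all genes from -1.14 to -0.15 in PEO1 at 8 h; changes are relative to the rescaled median. The cause of the lost calls was not tested.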

Other observations

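Across the 17 group means of log2(rescaled TPM + 1), CXCL1 followed CXCL3 most closely (r = 0.93), and CXCL5 followed CCL20 (r = 0.91). CXCL8 went with TNF (r = 0.73) and not with CXCL1 (r = 0.10). The groups share lines and scaling, so these values only describe the pattern. The longest annotated CXCL1 and CXCL3 transcripts matched at 84.7% of aligned bases and shared no stretch of 75 bases, though each shared such stretches with CXCL2. The genes most like the mean of CXCL1, CXCL2, CXCL3 and CXCL8 over the same groups were ZFR (r = 0.94), MSANTD3-TMEFF1 (r = 0.93), CPD (r = 0.91), HIBADH (r = 0.91) and RBBP9 (r = 0.91).

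The untreated PEO23 libraries entered no comparison of kept libraries. In deposited TPM, replicate 1 listed CXCL8 at 28.8, IL6 at 25.7 and CCL2 at 43.6, replicate 2 listed all 10 members at 0, and replicate 3 listed IL6 at 266 and CCL2 at 224 and CXCL8 at 0. With all 54 libraries, 5 members were called higher in PEO23 after 8 h against untreated and 2 after 24 h, where 6026 and 6071 of 18262 genes were called higher.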
